A study of Mus musculus with 24 samples.

Results

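Macrophages recognise antibody-coated targets through receptors for the constant part of immunoglobulin G (IgG). Of the 35770 genes in the deposited table, 6 were chosen by symbol as this receptor family of the mouse. They are Fcgr1, Fcgr3 and Fcgr4, which encode the activating Fc gamma receptors, Fcgr2b, which encodes the inhibitory one, Fcer1g, which encodes the common signalling gamma chain, and Fcgrt, which encodes the heavy chain of the neonatal Fc receptor FcRn. All 6 passed the filter on low values and are described over every group.

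The study exposed primary bone marrow-derived macrophages (BMDM) of C57BL/6 mice to medium conditioned by the mouse Lewis lung carcinoma line LL2, and asked how the KEAP1/NRF2 pathway of the cancer cells and the triterpenoid CDDO-Me shape the macrophages. Marrow cells were grown with M-CSF at 20 ng/mL for 5 days, given fresh M-CSF medium for a further 48 h, and then treated for 24 h with 75% conditioned medium (CM) and either vehicle or CDDO-Me at 100 nM. After 48 h of conditioning, CM was taken from LL2 cells that were wild-type (WT), KEAP1 KO or NRF2 KO, and the control (media) was complete DMEM kept without cancer cells, which makes 8 groups of 3 libraries: media/vehicle, WT/vehicle, KEAP1 KO/vehicle, NRF2 KO/vehicle, media/CDDO-Me, WT CM/CDDO-Me, KEAP1 KO CM/CDDO-Me and NRF2 KO CM/CDDO-Me. Poly-A RNA was sequenced, and the deposited values were taken as TPM, each gene's share of the transcripts of a library, corrected for length. The edits were made with CRISPR in the LL2 cells and not in the macrophages, and library names give 1 line name for each KO, so that a KO and its cell line cannot be told apart. CDDO-Me was present together with the CM, so that an action on the macrophages and an action on a component of the CM cannot be told apart.

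The activating Fc gamma receptors bind IgG on a target and signal through the immunoreceptor tyrosine-based activation motif (ITAM) of the gamma chain, which Src-family kinases phosphorylate and Syk then binds. The inhibitory receptor carries its own inhibitory motif, which recruits the phosphatase SHIP1, so that the balance of activating and inhibitory receptors sets the threshold for phagocytosis of antibody-coated cells and for cytokine release. Interferon gamma is a well known inducer of Fcgr1 in macrophages. FcRn, which pairs with beta-2 microglobulin, binds IgG inside acidic endosomes and returns it from degradation.

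Library checks bear on the values below. All 11 macrophage markers were above 0 in all 24 libraries, with a summed level of 21774 to 40578 TPM and Lyz2 the most abundant. The sums of the lists for other cells were 0.80 to 1.99 TPM (T or NK cell), 0.21 to 9.23 (epithelial), 0.601 to 21.8 (mast cell or basophil), 4.53 to 72.0 (endothelial), 11.7 to 76.2 (neutrophil) and 53.9 to 142 (B cell), with the dendritic cell and fibroblast lists given further on. The replicate 3 libraries of both NRF2 KO CM groups stood apart, with 15702 and 16299 genes above 0 against 17817 to 18993 in the other 22. In these libraries Fcgr2b was at 2.73 and 2.27 times the mean of the other replicates (vehicle, then CDDO-Me), Fcgr3 at 1.86 and 1.60, Fcer1g at 2.13 and 2.17, Fcgr4 at 1.03 and 2.01, Fcgr1 at 0.620 and 0.720 and Fcgrt at 0.278 and 0.461. Since all 24 libraries share 1 estimate of the spread, these replicate 3 libraries also widened the error of comparisons that do not involve NRF2 KO CM. Where a call changed without both, the values or the count of called members are given, some only at the end. The depth of each library is unknown, since TPM hold no read counts, and no source says that the 3 independent samples of a group come from separate mice, so that p-values measure the spread between these samples.

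Fcgr2b, Fcgr4, Fcgr3 and Fcer1g lie in this order on chromosome 1 of GRCm39, the build of the deposited values. Fcgr2b lies at chr1:170786186-170804177 on the minus strand, Fcgr4 at chr1:170846466-170857330 on the plus strand, Fcgr3 at chr1:170878738-170893549 and Fcer1g at chr1:171057141-171062219, both on the minus strand. The gaps between neighbours were 42288, 21407 and 163591 bases. Fcgr1 lies apart at chr3:96190225-96201338 and Fcgrt at chr7:44742412-44756819, both on the minus strand. Of the 31-base words in its transcripts, Fcgr2b shared 11.1% with any other gene and Fcgr3 10.3%, Fcgr4 1.33%, Fcgrt 1.27%, and Fcgr1 and Fcer1g 0. Between Fcgr2b and Fcgr3 235 words were shared, 4.06% of those of Fcgr2b and 7.12% of those of Fcgr3. Reads that hold only such words cannot be assigned to 1 of the 2 genes by their sequence. Fcgr2b also overlaps Gm38204 on the opposite strand, with which it shared 296 such words, and whether the counting used strand is not given in the sources used here. The words are those of GENCODE transcripts, and whether the deposited values rest on the same transcripts is not given either. Fcgr4 overlaps Gm35090 and Fcgrt overlaps Gm45669 on the opposite strand, but neither pair shared a word.

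The start-site windows of the genes with the largest responses are shown because their mRNAs answered the same exposures in opposite directions. Each covers 250 bases before and 50 bases after the RefSeq start (GRCm38.p6) and was found once in GRCm39, Fcgr1 at chr3:96201236-96201535 (minus strand), Fcgr4 at chr1:170846245-170846544 (plus strand) and Fcgr2b at chr1:170803591-170803890 (minus strand). Capitals mark matches, on either strand, to 4 short motifs chosen for factors known to act in macrophages, and no 2 of the marked matches overlap.
Fcgr1: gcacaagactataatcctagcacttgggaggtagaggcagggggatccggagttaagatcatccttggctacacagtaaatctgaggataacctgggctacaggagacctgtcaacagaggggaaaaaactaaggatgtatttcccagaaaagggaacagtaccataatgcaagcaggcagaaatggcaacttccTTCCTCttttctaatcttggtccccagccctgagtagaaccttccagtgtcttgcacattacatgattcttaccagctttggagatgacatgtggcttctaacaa
Fcgr4: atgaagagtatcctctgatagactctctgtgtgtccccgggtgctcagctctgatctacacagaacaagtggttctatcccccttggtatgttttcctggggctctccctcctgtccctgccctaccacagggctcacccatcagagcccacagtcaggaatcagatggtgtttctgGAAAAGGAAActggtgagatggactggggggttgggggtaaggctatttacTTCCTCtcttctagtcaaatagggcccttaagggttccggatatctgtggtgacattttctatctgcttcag
Fcgr2b: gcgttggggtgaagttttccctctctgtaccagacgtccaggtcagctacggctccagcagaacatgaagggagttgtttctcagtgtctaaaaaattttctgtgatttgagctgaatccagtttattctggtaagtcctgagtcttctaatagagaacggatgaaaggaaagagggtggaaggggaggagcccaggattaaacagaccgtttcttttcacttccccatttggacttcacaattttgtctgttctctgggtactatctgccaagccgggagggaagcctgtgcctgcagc

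The Fcgr4 window held GAAAAGGAAA, a match to the interferon-stimulated response element core GAAANNGAAA, 73 bases before the start site. The windows of Fcgr1, Fcgr3 and Fcgr4 held the PU.1 core GAGGAA on the opposite strand, where it reads as TTCCTC in the lines above. The Fcgrt window held TGACCAAGC, a match to the antioxidant response element core TGACNNNGC, and the STAT6 half-site pair TTCNNNNGAA was in none of the 6 genes' windows. The Fcgr2b and Fcer1g windows held none of the 4 motifs. Of 32851 RefSeq windows of this length, 3.44% held GAAANNGAAA, 28.3% GAGGAA, 12.4% TGACNNNGC and 6.95% TTCNNNNGAA, so that a match is a description of the letters and not of binding.

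CDDO-Me raised Fcgr1 and Fcgr4 in BMDM given WT or KEAP1 KO CM, and lowered both in BMDM given control media or NRF2 KO CM. The inhibitory Fcgr2b was highest with WT or KEAP1 KO CM under vehicle and was lower there with CDDO-Me. With NRF2 KO CM none of the 6 genes had a called difference from media under either treatment in the main fit. Over all genes, 0.00732% were called there under vehicle and 0.19% under CDDO-Me. Fcgr2b was called under CDDO-Me with the replicate block (limma adjusted p = 0.0289), and array weights also called a member there, as counted at the end. The levels are shown in the plot of TPM by library.

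**Figure D1:**
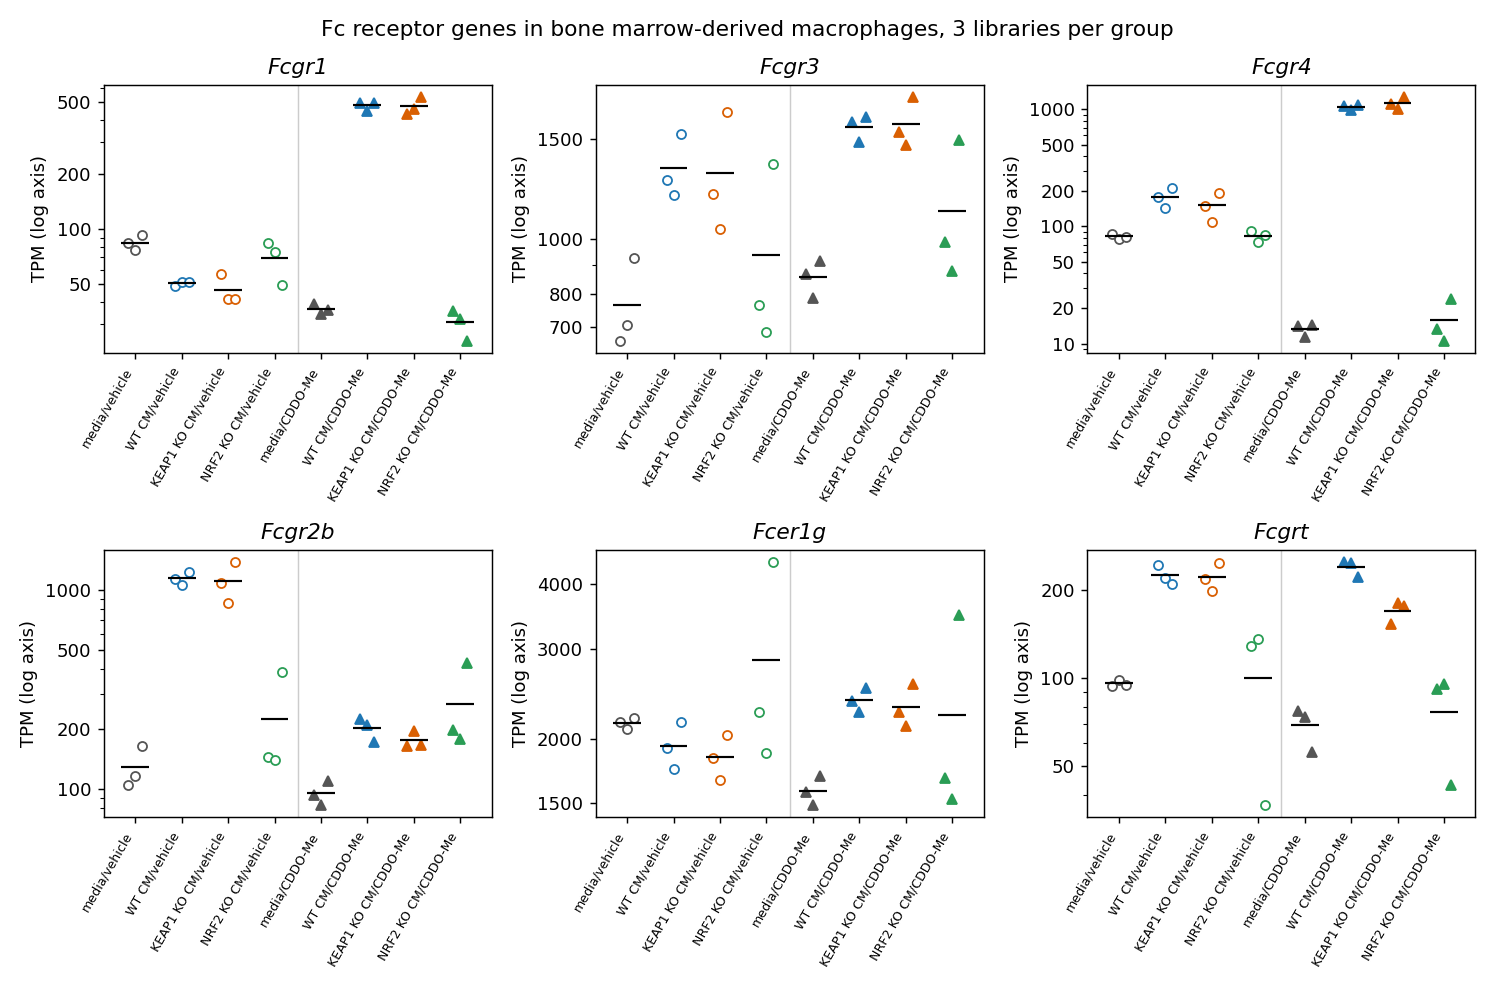
TPM (log axis) of the 6 Fc receptor genes in each of the 24 libraries, with 3 points and a mean line per group, vehicle as open circles and CDDO-Me as filled triangles. Fcgr1 and Fcgr4 are highest in the 6 libraries with WT or KEAP1 KO CM and CDDO-Me (427 to 532 TPM and 997 to 1274 TPM), and Fcgr2b is highest with the same CM under vehicle (857 to 1377 TPM). The replicate 3 points of NRF2 KO CM lie away from their group for Fcgr1, Fcgr2b, Fcgr3, Fcer1g and Fcgrt, and under CDDO-Me also for Fcgr4.

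Fcgr1 encodes the high-affinity receptor, which binds IgG as a monomer. It was at 83.7, 76.5 and 93.4 TPM in media/vehicle, at 49.0, 51.03 and 51.3 in WT/vehicle, at 56.9, 41.3 and 41.4 in KEAP1 KO/vehicle and at 84.4, 74.8 and 49.3 in NRF2 KO/vehicle BMDM. With CDDO-Me it was at 38.7, 34.4 and 36.0 TPM in media, at 494, 448 and 496 with WT CM, at 427, 459 and 532 with KEAP1 KO CM and at 35.6, 32.3 and 24.4 with NRF2 KO CM. The 6 libraries of WT or KEAP1 KO CM with CDDO-Me were thus above all 18 others, and those of media or NRF2 KO CM with CDDO-Me were below all 12 under vehicle. In order of mean level, the only neighbouring groups that differed past the threshold were media/vehicle and KEAP1 KO CM/CDDO-Me (log2 difference 2.64, limma adjusted p = 1.68e-10).

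Fcgr4 encodes a receptor of intermediate affinity that takes part in antibody-dependent killing by myeloid cells. Its values were 86.8, 78.7 and 81.8 TPM in media/vehicle, 179.5, 145 and 212 in WT/vehicle, 150.04, 110.04 and 194 in KEAP1 KO/vehicle and 91.4, 73.8 and 84.9 in NRF2 KO/vehicle BMDM. With CDDO-Me they were 14.1, 11.3 and 14.3 TPM in media, 1066, 997 and 1097 with WT CM, 1112, 1006 and 1274 with KEAP1 KO CM and 13.3, 10.6 and 24.1 with NRF2 KO CM. As a fold, its group means spanned more than those of the other 5 genes, from a mean of 13.3 ± 1.66 TPM in media/CDDO-Me to 1131 ± 135 TPM (SD, n = 3 each) in KEAP1 KO CM/CDDO-Me BMDM. Of the 7 steps between neighbours in the order of means, 2 passed the threshold, from NRF2 KO CM/CDDO-Me to media/vehicle (log2 difference 2.33) and from WT/vehicle to WT CM/CDDO-Me (2.70).

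Fcgr2b encodes the inhibitory receptor. It was at 104, 117 and 164 TPM in media/vehicle, at 1135, 1060 and 1223 in WT/vehicle, at 1082, 857 and 1377 in KEAP1 KO/vehicle and at 145, 140 and 388 in NRF2 KO/vehicle BMDM. With CDDO-Me it was at 93.7, 82.7 and 109.6 TPM in media, at 224, 210.4 and 172 with WT CM, at 164, 194.5 and 166 with KEAP1 KO CM and at 197, 179 and 427 with NRF2 KO CM. The 6 libraries of WT and KEAP1 KO CM under vehicle were above all others, and the highest of the rest was NRF2 KO CM/CDDO-Me replicate 3. The single neighbour step past the threshold led from NRF2 KO CM/CDDO-Me to KEAP1 KO/vehicle (log2 difference 2.10, limma adjusted p = 0.000311).

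Fcgr3 encodes the low-affinity activating receptor and was the most abundant of the 4 IgG receptors in all 8 groups by mean TPM. It was at 663, 706 and 926 TPM in media/vehicle, at 1270.5, 1198 and 1531 in WT/vehicle, at 1200.1, 1040 and 1674 in KEAP1 KO/vehicle and at 767, 687 and 1354 in NRF2 KO/vehicle BMDM. With CDDO-Me it was at 868, 787 and 915 TPM in media, at 1607, 1479 and 1641 with WT CM, at 1541, 1462 and 1777 with KEAP1 KO CM and at 988, 879 and 1492 with NRF2 KO CM. Its levels ran from low to high with no step between neighbouring groups past the threshold, and the KEAP1 KO CM and WT CM groups overlapped under both treatments.

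Fcer1g, the gamma chain on which Fcgr1, Fcgr3 and Fcgr4 depend for signalling and surface expression, had group means of 1587 to 2855 TPM, the narrowest range of the 6 genes as a fold. Leaving out the replicate 3 libraries of NRF2 KO CM, it lay between 1487 and 2564 TPM, lowest in media/CDDO-Me (1581, 1487 and 1693) and highest with CDDO-Me and WT CM (2370.4, 2263 and 2515) or KEAP1 KO CM (2254, 2121 and 2564). The replicate 3 libraries of NRF2 KO CM held 4421 TPM under vehicle and 3482 TPM under CDDO-Me, against 2262 and 1881, and 1681 and 1531, in the other replicates. Fcgrt was at 94.3, 98.5 and 94.9 TPM in media/vehicle, at 244, 220.5 and 210.2 in WT/vehicle, at 218, 199 and 247 in KEAP1 KO/vehicle and at 129, 135.5 and 36.8 in NRF2 KO/vehicle BMDM. Under CDDO-Me it was at 77.2, 73.8 and 56.2 TPM in media, at 249.4, 248 and 221 with WT CM, at 154, 180.4 and 176 with KEAP1 KO CM and at 91.9, 95.7 and 43.2 with NRF2 KO CM. All 12 libraries with WT or KEAP1 KO CM were above all 12 others. For this gene the step from NRF2 KO/vehicle to KEAP1 KO CM/CDDO-Me was the single one past the threshold (log2 difference 1.13, limma adjusted p = 0.00875).

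The effect of CDDO-Me was tested within each medium by limma on log2 of scaled TPM plus 1, so that a fold change is on that scale, and each p was adjusted (Benjamini-Hochberg) over the 13661 genes that passed the filter. In media BMDM, 2 of the 6 genes were called, both lower, where 6.02% of all genes were called. Fcgr4 fell by 2.53 on the log2 scale (SE 0.26, adjusted p = 2.3e-06), a mean TPM 6.22-fold lower and the 6th lowest change of all genes tested. Fcgr1 fell by 1.17 (SE 0.16, adjusted p = 8.46e-05), a mean 2.33-fold lower. In NRF2 KO CM BMDM the same 2 genes were called, where 9.61% of all genes were, with Fcgr4 at -2.35 (SE 0.26, adjusted p = 4.24e-06) and Fcgr1 at -1.10 (SE 0.16, adjusted p = 0.000123). The call of Fcgr1 in NRF2 KO CM was lost when only these 2 groups were fitted (adjusted p = 0.0855).

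In WT CM BMDM, 3 of the 6 genes were called with CDDO-Me, 2 higher and 1 lower, where 27.9% of all genes were called. Fcgr1 rose 9.5-fold in mean TPM (log2 fold change 3.35, SE 0.16, adjusted p = 4.41e-12) and Fcgr4 5.89-fold (2.70, SE 0.26, adjusted p = 9.7e-08). Fcgr2b, the inhibitory gene, fell by 2.36 on the log2 scale (SE 0.36, adjusted p = 3.91e-05), a mean 5.63-fold lower. In KEAP1 KO CM BMDM the same 3 genes were called in the same directions, where 28.8% of all genes were called. There Fcgr1 rose 10.2-fold (3.496, SE 0.16, adjusted p = 2.17e-12), Fcgr4 rose 7.47-fold (3.09, SE 0.26, adjusted p = 1.5e-08) and Fcgr2b was 6.32-fold lower (-2.46, SE 0.36, adjusted p = 2.39e-05). In size, Fcgr1 ranked 115th and 114th from the highest and Fcgr2b 131st and 104th from the lowest of the 13661 genes in WT and KEAP1 KO CM.

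**Figure D2:**
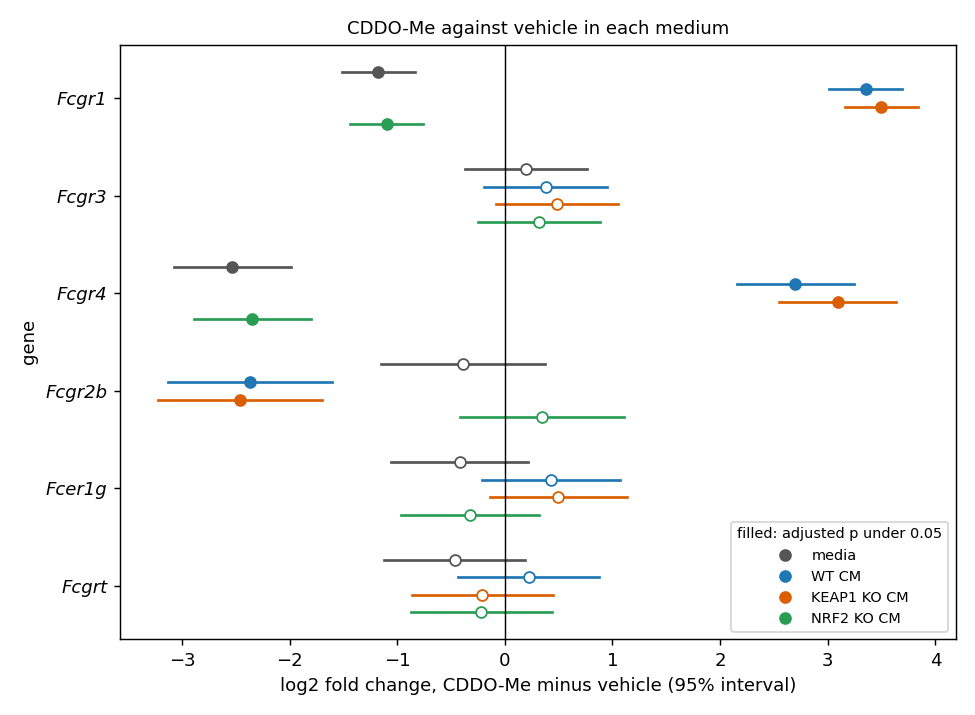
Log2 fold change of CDDO-Me against vehicle in each of the 4 media for the 6 genes, as points with 95% intervals from limma, filled where the adjusted p is under 0.05. Fcgr1 and Fcgr4 lie at -2.53 to -1.10 in media and NRF2 KO CM and at 2.70 to 3.496 in WT and KEAP1 KO CM, Fcgr2b is filled in WT and KEAP1 KO CM, and no point of Fcgr3, Fcer1g or Fcgrt is filled.

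Fcgr3, Fcer1g and Fcgrt were not called with CDDO-Me in any medium. The log2 fold changes of Fcgr3 were 0.19 in media, 0.38 in WT CM and 0.48 in KEAP1 KO CM (adjusted p = 0.907, 0.359 and 0.214), and those of Fcer1g were -0.42, 0.43 and 0.50 (0.635, 0.353 and 0.263). Those of Fcgrt were -0.46, 0.22 and -0.21 (0.588, 0.694 and 0.7). Without both replicate 3 libraries of NRF2 KO CM, Fcer1g was lower with CDDO-Me in media (-0.41, adjusted p = 0.0387) and higher in WT CM (0.42, 0.0129) and KEAP1 KO CM (0.48, 0.00465). Fcgrt was then lower with CDDO-Me in media (-0.45, adjusted p = 0.00356) and NRF2 KO CM (-0.45, 0.0199), and Fcgr3 higher in KEAP1 KO CM (0.47, 0.0386). These calls are those made with both libraries left out and were not made in the main fit. Fits that kept both libraries also called more members in some media, as listed at the end. Among these was Fcgr3 in KEAP1 KO CM with the replicate block.

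The effects of CDDO-Me in the different media were compared directly with interaction contrasts. Against its effect in control media, its effect in WT CM differed for 3 of the 6 genes, where 15.3% of all genes were called, and in KEAP1 KO CM for the same 3, where 14.8% were. The difference was 4.53 (SE 0.23, adjusted p = 1.97e-11) for Fcgr1 and 5.23 (SE 0.37, adjusted p = 3.10e-09) for Fcgr4 in WT CM, and -1.98 (SE 0.52, adjusted p = 0.0114) for Fcgr2b. Without both replicate 3 libraries of NRF2 KO CM, more members were called for WT CM, as counted at the end. No member's effect of CDDO-Me was called as different between NRF2 KO CM and media, where 0% of all genes were called and 359 genes had an unadjusted p under 0.05. Between KEAP1 KO and WT CM none was called either, where 0% of all genes were and 224 had an unadjusted p under 0.05. For Fcgr4 the difference between KEAP1 KO and WT CM was 0.39 with a 95% interval of -0.37 to 1.16, so that any difference within this interval is compatible with the values.

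Under vehicle, WT CM changed 4 of the 6 genes against media, 3 higher and 1 lower, where 7.23% of all genes were called. Fcgr2b rose 8.89-fold (log2 fold change 3.24, SE 0.36, adjusted p = 5.2e-06), Fcgrt 2.34-fold (1.29, SE 0.31, adjusted p = 0.0134) and Fcgr4 2.17-fold (1.16, SE 0.26, adjusted p = 0.00741), while Fcgr1 fell by 0.66 on the log2 scale (SE 0.16, adjusted p = 0.0146). Fcgr3 was 0.88 higher without passing the threshold (adjusted p = 0.0565), and passed it with the replicate number as a block (0.000515) and without both replicate 3 libraries of NRF2 KO CM (0.00177). Fcer1g was at -0.08 (adjusted p = 0.962). The count fell to 2 of 6 without media/vehicle replicate 1 (Fcgr1 adjusted p = 0.0504 and Fcgrt 0.0502) or WT CM/vehicle replicate 1 (0.0649 and 0.0565), and Fcgr1 was also lost without media/vehicle replicate 3 (0.0769).

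With KEAP1 KO CM under vehicle, 3 of the 6 genes were called against media, where 8.06% of all genes were. Fcgr2b rose 8.62-fold (3.10, SE 0.36, adjusted p = 8.14e-06), Fcgrt rose 2.31-fold (1.19, SE 0.31, adjusted p = 0.0204), and Fcgr1 fell by 0.86 (SE 0.16, adjusted p = 0.00157). The call of Fcgrt was lost without any 1 of the 3 media/vehicle libraries or without KEAP1 KO/vehicle replicate 1 or 3 (adjusted p = 0.0596 to 0.079). Fcgr3 and Fcgr4 were higher by 0.76 and 0.83 without passing the threshold (adjusted p = 0.102 and 0.055), and both passed it without both replicate 3 libraries of NRF2 KO CM (0.00478 and 0.00541). Both also passed it with the replicate block, as given at the end. NRF2 KO CM changed none of the 6 genes past the threshold under vehicle, where 0.00732% of all genes were called and 1650 had an unadjusted p under 0.05. For Fcgr2b the difference was 0.66 (adjusted p = 0.408), and 0.14 without both replicate 3 libraries.

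**Figure D3:**
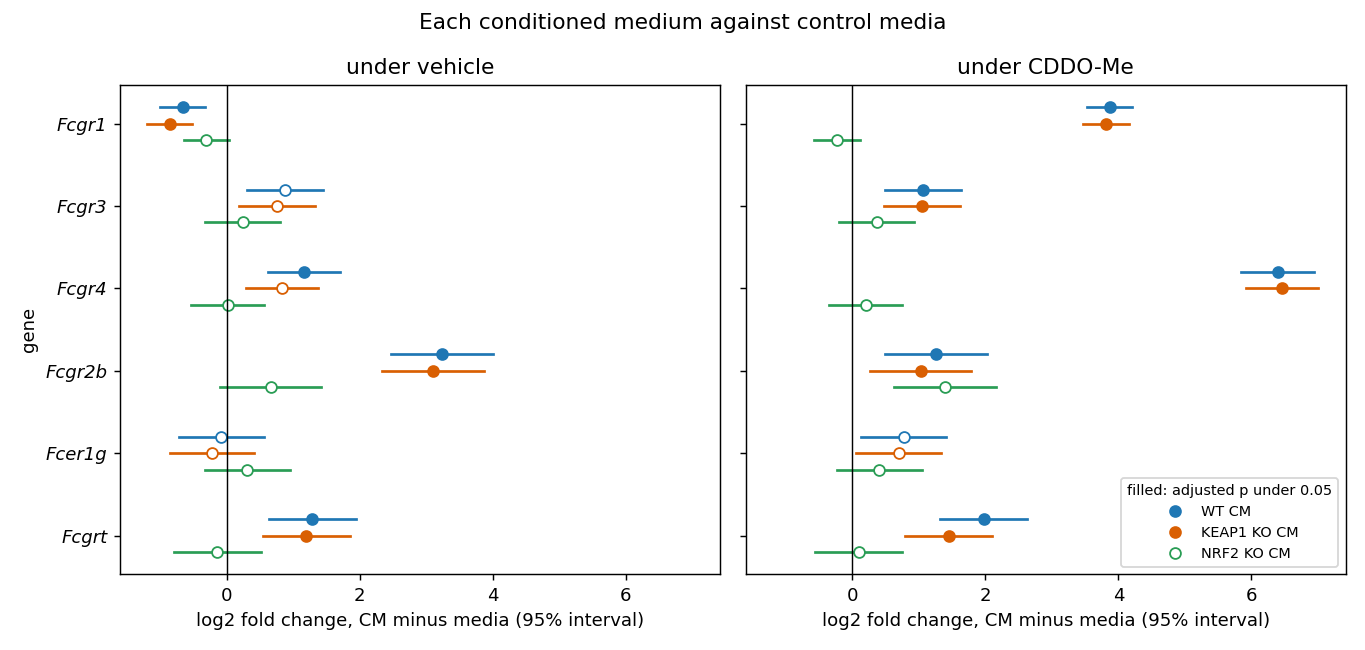
Log2 fold change of each CM against control media under vehicle (left) and CDDO-Me (right) for the 6 genes, as points with 95% intervals from limma, filled where the adjusted p is under 0.05. Under vehicle Fcgr2b stands furthest from 0 with WT and KEAP1 KO CM (3.24 and 3.10), under CDDO-Me Fcgr4 does (6.39 and 6.46), and no point of NRF2 KO CM is filled.

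With CDDO-Me present, WT CM raised 5 of the 6 genes against media, where 26.8% of all genes were called. Fcgr4 was 79.4-fold higher (log2 fold change 6.39, SE 0.26, adjusted p = 2.85e-13), Fcgr1 13.2-fold (3.87, SE 0.16, adjusted p = 4.54e-13) and Fcgrt 3.47-fold (1.97, SE 0.31, adjusted p = 7.15e-05). Fcgr2b and Fcgr3 rose by 1.26 (adjusted p = 0.0137) and 1.06 (0.00572), and the call of Fcgr2b was lost without media/CDDO-Me replicate 2 (0.0604) or WT CM/CDDO-Me replicate 1 (0.0533). Fcer1g was higher by 0.77 without passing the threshold (adjusted p = 0.0698), and passed it with the replicate block (0.00995) and without both replicate 3 libraries of NRF2 KO CM (0.000127). The control media shared by both CM comparisons is also the group in which CDDO-Me lowered Fcgr1 and Fcgr4, so that these folds hold a fall in media as well as a rise with CM.

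KEAP1 KO CM raised the same 5 genes under CDDO-Me, where 22.6% of all genes were called. Fcgr4 was 85.3-fold higher than in media (6.46, SE 0.26, adjusted p = 2.36e-13), Fcgr1 13.0-fold (3.81) and Fcgrt 2.46-fold (1.45, adjusted p = 0.00174), while Fcgr3 and Fcgr2b rose by 1.04 (0.00756) and 1.03 (0.049). The call of Fcgr2b was lost without any 1 of the 6 libraries compared (adjusted p = 0.0536 to 0.163), and with other or no scaling, no filter, a pseudocount of 5 or no trend (0.0526 to 0.0931). Fcer1g was at 0.69 (adjusted p = 0.117, and 0.0213 with the replicate block). NRF2 KO CM changed none of the 6 genes past the threshold under CDDO-Me, where 0.19% of all genes were called and 1000 had an unadjusted p under 0.05. Its Fcgr2b was 1.39 higher than in media (adjusted p = 0.178), which passed with the replicate block (0.0289) and was 0.95 (0.0808) without both replicate 3 libraries.

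WT CM was also compared with NRF2 KO CM directly. Under vehicle, 3 of the 6 genes were higher with WT CM, where 10.6% of all genes were called, namely Fcgr2b by 2.58 (SE 0.36, adjusted p = 9.14e-05), Fcgrt by 1.43 (SE 0.31, adjusted p = 0.00551) and Fcgr4 by 1.15 (SE 0.26, adjusted p = 0.00719). All 3 calls were lost when these 2 groups were fitted alone (adjusted p = 0.064, 0.233 and 0.0735). Under CDDO-Me, 3 of the 6 were higher, where 26.1% of all genes were called, namely Fcgr4 65.8-fold (6.19, SE 0.26, adjusted p = 5.24e-13), Fcgr1 15.6-fold (4.10, SE 0.16, adjusted p = 1.95e-13) and Fcgrt 3.11-fold (1.87, SE 0.31, adjusted p = 0.000138). The effect of CDDO-Me itself differed between WT CM and NRF2 KO CM for Fcgr1 by 4.45 (SE 0.23, adjusted p = 2.50e-11), for Fcgr4 by 5.05 (SE 0.37, adjusted p = 5.12e-09) and for Fcgr2b by -2.71 (SE 0.52, adjusted p = 0.000867), where 13.4% of all genes were called. KEAP1 KO CM against NRF2 KO CM gave 3 called genes under each treatment, Fcgr2b and Fcgrt higher and Fcgr1 lower under vehicle, where 9.04% of all genes were called, and Fcgr1, Fcgr4 and Fcgrt higher under CDDO-Me, where 21.1% were. The 3 calls under vehicle were lost when these 2 groups were fitted alone. Without both replicate 3 libraries of NRF2 KO CM, more members were called for WT and for KEAP1 KO CM against NRF2 KO CM. The same held for the effect of CDDO-Me in WT CM against that in NRF2 KO CM, as counted at the end.

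Between KEAP1 KO CM and WT CM no difference of the 6 genes passed the threshold, which does not show that the media act alike. Under vehicle none was called, where 0% of all genes were called and 350 had an unadjusted p under 0.05. The log2 difference, KEAP1 KO minus WT, was -0.20 for Fcgr1 (95% interval -0.54 to 0.14), -0.14 for Fcgr2b (-0.90 to 0.63), -0.33 for Fcgr4 (-0.87 to 0.22) and -0.09 for Fcgrt (-0.75 to 0.56). Under CDDO-Me none was called either, where 0.0439% of all genes were called and 561 had an unadjusted p under 0.05. Fcgrt came closest, at 154 to 180.4 TPM with KEAP1 KO CM against 221 to 249.4 TPM with WT CM, groups that did not overlap. That held for 1 of the 6 genes and for 11.1% of all genes tested. Its difference was -0.52 (95% interval -1.18 to 0.13, limma adjusted p = 1), and -0.52 (0.033) without both replicate 3 libraries of NRF2 KO CM.

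Taken as TPM, which are corrected for length, the levels of the 4 IgG receptors were set beside each other within each library, as shares of their summed TPM. If the deposited values are not corrected for length, gene length enters these shares and the ratios below. In media/vehicle BMDM, Fcgr3 made up 72.0% ± 1.26, Fcgr2b 11.99% ± 0.917, Fcgr1 8.04% ± 0.798 and Fcgr4 7.92% ± 1.40 (SD, n = 3) of 1060 TPM. With WT CM under vehicle the sum was 2701 TPM and the share of inhibitory Fcgr2b 42.3% ± 1.51, and with KEAP1 KO CM 2608 TPM and 42.4% ± 0.926. With CDDO-Me added, the sums were 3310 and 3372 TPM, Fcgr2b was down to 6.12% ± 0.923 and 5.24% ± 0.913, and Fcgr4 made up 31.8% ± 0.387 and 33.5% ± 1.11. Fcgr3 changed little between those groups, from 49.3% ± 1.32 to 47.6% ± 0.518 with WT CM and from 49.98% ± 1.53 to 47.2% ± 0.363 with KEAP1 KO CM.

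**Figure D4:**
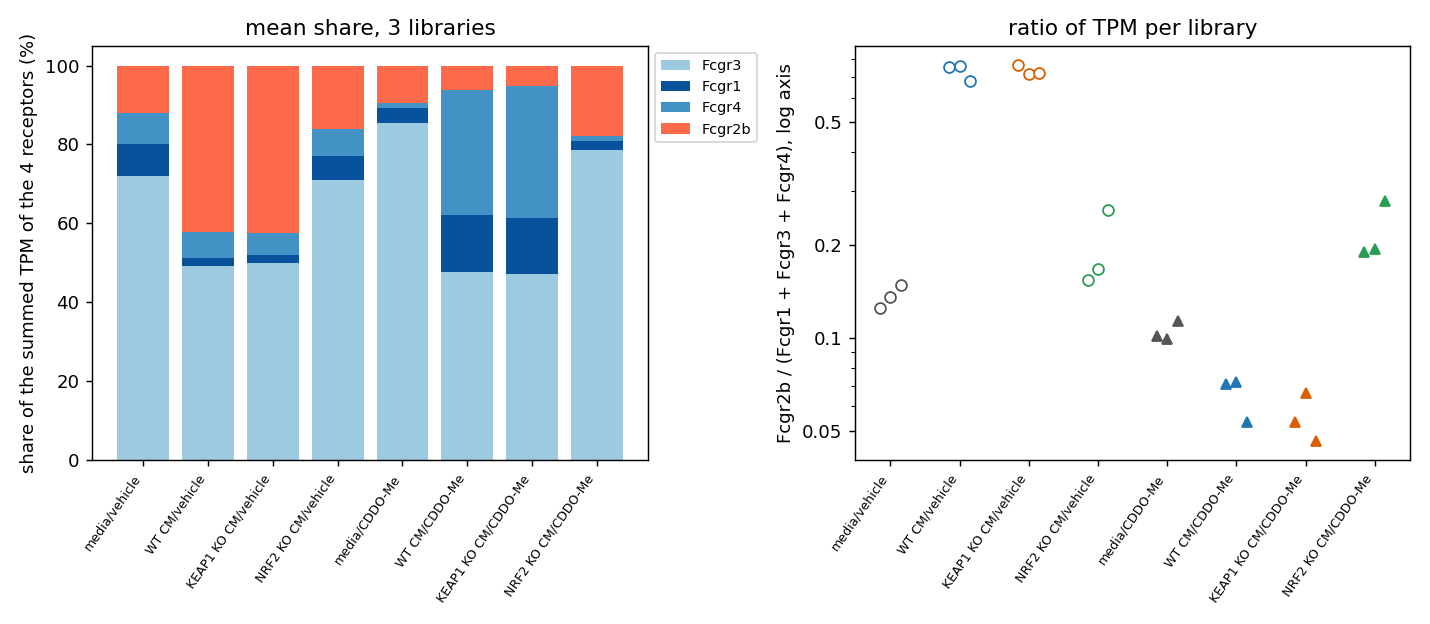
Left, mean share (%) of each IgG receptor gene in the summed TPM of the 4 in the 8 groups, over 3 libraries each; right, the ratio of inhibitory Fcgr2b to the sum of activating Fcgr1, Fcgr3 and Fcgr4 in each library (log axis, vehicle as circles, CDDO-Me as triangles). The Fcgr2b share is 42.3% and 42.4% with WT and KEAP1 KO CM under vehicle and 6.12% and 5.24% with CDDO-Me, and the ratio falls from 0.681 to 0.769 in the former libraries to 0.0463 to 0.0720 in the latter.

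The ratio of inhibitory to activating receptor mRNA, Fcgr2b over the sum of Fcgr1, Fcgr3 and Fcgr4, does not depend on the scaling between libraries. Its mean was 0.136 ± 0.0119 in media/vehicle, 0.733 ± 0.0447 in WT/vehicle, 0.736 ± 0.0282 in KEAP1 KO/vehicle and 0.194 ± 0.0583 in NRF2 KO/vehicle BMDM (SD, n = 3 each). Under CDDO-Me it was 0.105 ± 0.00765 in media, 0.0653 ± 0.0104 with WT CM, 0.0554 ± 0.0102 with KEAP1 KO CM and 0.220 ± 0.0492 with NRF2 KO CM. The libraries of WT and KEAP1 KO CM thus held the highest ratios of the series under vehicle and the lowest under CDDO-Me, without overlap with the other groups in either case. The ratio of Fcgr4 to Fcgr3, neighbours on chromosome 1, was 0.0154 ± 0.000945 in media/CDDO-Me and 0.669 ± 0.00512 in WT CM/CDDO-Me BMDM, and between 0.0965 and 0.134 in the 4 vehicle groups. In bulk RNA, fewer cells that express a gene and less of its RNA per cell cannot be told apart, so a mixed culture and a uniform one can give the same ratio.

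Markers of other cell types moved with some of these values. The summed level of the 7 dendritic cell markers was 722 to 834 TPM with WT CM and 664 to 860 TPM with KEAP1 KO CM under CDDO-Me, the 6 libraries where Fcgr1 and Fcgr4 were highest, against 52.1 to 429 TPM in the other 18. Most of it was Bst2, which is also an interferon-induced gene. Without Bst2 the sum of the other 6 was 100 to 127 and 46.9 to 86.1 TPM in those groups and at most 5.32 TPM elsewhere, carried by Clec9a (95.4 to 123 TPM with WT CM, 43.8 to 83.4 with KEAP1 KO CM and at most 0.497 in the other groups). Xcr1 was at 1.91 to 4.69 TPM in the same libraries and at most 0.180 in the others, while Flt3 was at most 0.239 and Zbtb46 at most 1.36 TPM in all 24, and Cd209a was at most 0.0644 TPM there. The sum of 8 fibroblast markers was 202 to 578 and 163 to 780 TPM in those groups and 252 to 2026 TPM in the other 18, with Col1a2 the most abundant. The sum of 8 neutrophil markers was 33.5 to 60.2 TPM with WT CM and 65.7 to 76.2 with KEAP1 KO CM under CDDO-Me, against 11.7 to 38.5 and 16.6 to 25.8 under vehicle, and it was also above vehicle with CDDO-Me in media (32.8 to 52.0 against 15.5 to 28.0) and NRF2 KO CM (34.7 to 65.4 against 14.4 to 31.4), where Fcgr4 fell. S100a8 was the most abundant of them, and Ly6g was at 0 in 19 of 24 libraries. The epithelial sum was 4.98 to 9.23 TPM in the 6 libraries of WT or KEAP1 KO CM under vehicle, where Fcgr2b was highest, and 0.21 to 3.37 in the other 18. The part of these cell types in the receptor levels was not tested.

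Genes of the receptors' signalling chain were counted from lists chosen with earlier results of these data known, beside the median of all genes. Over all genes tested, 27.9% were called with CDDO-Me in WT CM, 6.02% in media and 7.23% with WT CM against media under vehicle, and the share called of a list is to be read against these. Of 27 genes of proximal activating signalling, 7 were higher and 3 lower with CDDO-Me in WT CM (37% called, median log2 fold change 0.03, against -0.01 for all genes), and 0 higher and 2 lower in media (-0.09 against -0.00282), where the replicate block called 5. Lyn, a Src-family kinase of the ITAM, rose by 1.45 in WT CM (adjusted p = 1.84e-07) while the adaptor Lat fell by 3.10 (4.99e-07). Syk, the kinase that binds the ITAM, fell by 0.50 in WT CM (adjusted p = 0.0128) and by 0.55 in media (0.0248), and was at -0.19 in KEAP1 KO CM (0.382) and -0.15 in NRF2 KO CM (0.636). With WT CM against media under vehicle, 2 of the 27 were higher and 4 lower, among them the kinase Fyn at 2.00 (adjusted p = 4.74e-10), Prkcd at 0.70 (0.00644) and Pik3r5, a subunit of a phosphoinositide 3-kinase, at -0.77 (0.0044). Pik3r5 was also lower with CDDO-Me in media (-0.59, adjusted p = 0.0325).

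Of 17 inhibitory signalling genes, 4 were higher and 2 lower with CDDO-Me in WT CM (35.3% called, median 0.27), and 0 higher and 3 lower in media (-0.21). Ptpn6, which encodes the phosphatase SHP-1, rose by 1.99 (adjusted p = 1.04e-09) and the inhibitory lectin receptor Clec12a by 2.74 (8.52e-08), while the ubiquitin ligase Cblb fell by 2.40 (6.1e-11). Inpp5d, which encodes SHIP1, the phosphatase that the Fcgr2b protein recruits, rose by 0.73 with CDDO-Me in WT CM (adjusted p = 1.31e-05). It was 0.51 lower with WT CM against media under vehicle (log2 fold change -0.51, adjusted p = 0.0032), the exposure in which Fcgr2b rose, and Ptpn6 was at -0.57 (0.0146). With WT CM under vehicle, 2 of the 17 were higher and 5 lower (median -0.34, and 11 called with the replicate block), among them Clec12a at -2.18 (1.2e-05), the sialic acid receptor Siglece at -1.45 (0.000731) and the adaptor Dok2 at 1.36 (0.00496), and with CDDO-Me in media Clec12a, Cblb and Sirpa, the receptor for CD47, were at -1.08, -0.88 and -0.52 (0.0147, 0.00036 and 0.031).

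Of 32 genes of the engulfment and actin machinery, 9 were higher and 1 lower with CDDO-Me in WT CM (31.2% called, median 0.19), 0 and 1 in media (median 0.01), and 0 and 1 with WT CM against media under vehicle (median 0.01). With the replicate block, 2 were called in media and 5 with WT CM under vehicle. Pak1, an actin-regulating kinase, rose by 1.60 (adjusted p = 3.54e-09) and Vasp by 1.03 (0.0417), and the motor Myo1e fell by 1.23 (9.33e-07). Myo1e was also at -0.67 in media with CDDO-Me (adjusted p = 0.00507), and the motor Myo10 at -0.87 with WT CM under vehicle (0.0117). Of 16 other receptors and adaptors with an ITAM partner, 10 passed the filter, of which 4 were higher and 1 lower with CDDO-Me in WT CM, 1 higher in media, and 1 lower with WT CM under vehicle, where the block called 3 in each of the latter comparisons. Tyrobp, the other ITAM adaptor of macrophages, was at -0.09 with CDDO-Me in WT CM (adjusted p = 0.821). Clec4n, which encodes the lectin Dectin-2 and signals through the gamma chain, rose by 4.71 in WT CM (adjusted p = 2.78e-08) and by 2.99 in media (8.6e-05), Clec4e by 2.15 in WT CM (0.00973) and Pira2 by 1.38 (0.000594), and Pira2 was at -1.001 with WT CM under vehicle (0.029).

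Of 13 other immunoglobulin receptors, 12 were in the table and 2 passed the filter. Fcrl1, an Fc receptor-like gene, rose with CDDO-Me by 3.91 in WT CM (adjusted p = 8.24e-15) and by 0.90 in media (0.000123), and was at -2.66 with WT CM against media under vehicle (2.5e-11). Trim21, an antibody receptor of the cytosol, rose by 2.10 in WT CM (adjusted p = 4.18e-11). B2m, whose protein pairs with FcRn, rose by 1.63 with CDDO-Me in WT CM (adjusted p = 0.00103), where Fcgrt was at 0.22 (0.694), and was at 0.09 with WT CM under vehicle (0.962), where Fcgrt rose.

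A list of 22 genes chosen for the control of Fc receptor genes held transcription factors, cytokine receptors and others such as Jak2 and C5ar1. Of the 22, 10 were higher and 2 lower with CDDO-Me in WT CM (54.5% called, median 0.36). In media 0 were higher and 1 lower (median -0.07), and with WT CM under vehicle 4 were higher and 2 lower (median 0.07). Irf1, an interferon-induced transcription factor, was at 81.02 ± 28.0 TPM in WT/vehicle and 930 ± 50.02 TPM in WT CM/CDDO-Me BMDM (SD, n = 3), a rise of 3.69 (adjusted p = 4.19e-10), and its log2 fold change in media was 0.31 (0.68). C5ar1, the receptor for the complement fragment C5a, fell by 2.86 in WT CM (1.36e-07) and by 1.62 in media (0.000922). With WT CM under vehicle, Klf4 was at 1.87 (adjusted p = 1.01e-06), Jak2 at 1.10 (3.6e-06) and the interleukin 4 receptor gene Il4ra at 1.06 (8.61e-06).

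**Figure D5:**
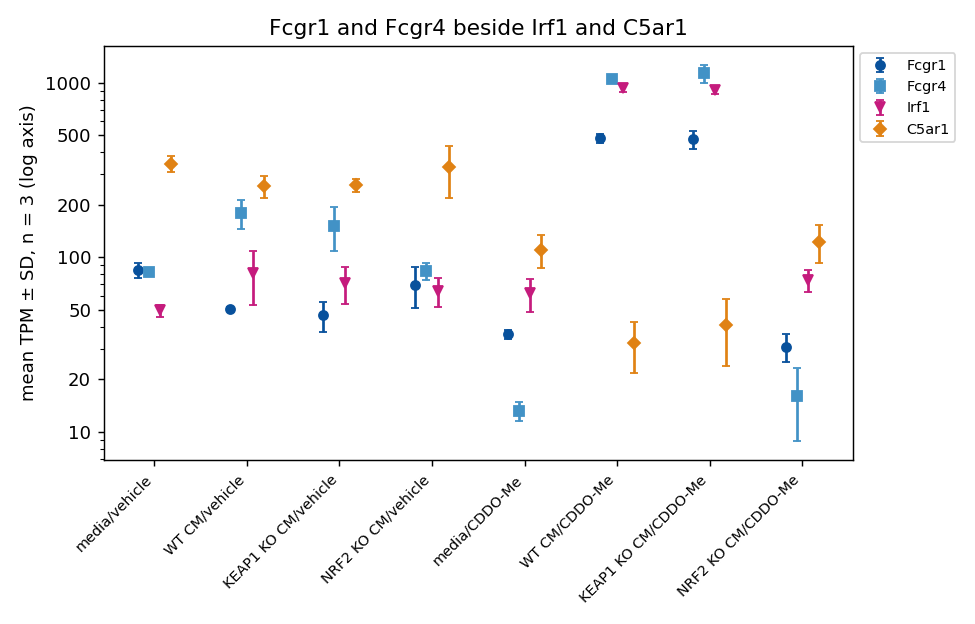
Mean TPM ± SD (3 libraries, log axis) of Fcgr1, Fcgr4, Irf1 and C5ar1 in the 8 groups. Irf1 reaches 930 and 911 TPM in WT and KEAP1 KO CM with CDDO-Me, the groups in which Fcgr1 and Fcgr4 are highest, and lies between 49.7 and 81.02 TPM in the other 6, while C5ar1 is lowest in the former (32.3 and 40.8 TPM).

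The genes whose levels over the 24 libraries were most like each member's are given as a description, since the libraries of a group share an exposure. For Fcgr1 they were Usp12, Phc2 and the class II gene H2-Eb1 (Pearson r of 0.98, 0.98 and 0.97 on log2 scaled TPM), and for Fcgr4 the interferon-inducible GTPase genes Gvin2 and Gvin1, and Scpep1 (0.97, 0.97 and 0.95). For Fcgr2b they were Tlr4, Snx6 and Fchsd2 (0.96, 0.95 and 0.94), for Fcgr3 Tiparp, Ptpn2 and Ric1 (0.94, 0.94 and 0.93), for Fcer1g Ensa, Dnajc7 and Tent2 (0.97, 0.96 and 0.95) and for Fcgrt Arhgap4, Zbtb5 and Fbl (0.98, 0.95 and 0.95). Once group means were subtracted, r was 0.51 for Usp12 and 0.13 for Gvin2 but 0.98 for Ensa and 0.91 for Arhgap4. Over the 24 libraries the likeness of the former 2 genes thus lies mainly between groups and that of the latter 2 also within them. These values include both replicate 3 libraries of NRF2 KO CM and were not computed without them. The SD of Ensa was 28.3 and 20.0 TPM with NRF2 KO CM (vehicle, then CDDO-Me) and 1.87 to 7.40 in the other groups. For Arhgap4 it was 13.3 and 8.72 against 3.30 to 6.19.

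Among the members themselves, Fcgr1 and Fcgr4 had the highest correlation over the 24 libraries (r = 0.89), with 0.04 once group means were subtracted. Fcgr2b and Fcgr3, which share part of their sequence, had r = 0.49, and 0.92 within groups. Fcer1g and Fcgr3 had r = 0.62, and 0.92 within groups, and Fcer1g and Fcgrt -0.08, and -0.83 within groups. In the replicate 3 libraries of NRF2 KO CM, Fcgr2b, Fcgr3 and Fcer1g were high and Fcgrt low. Without both, a choice made after seeing the data, the within-group r over 22 libraries was 0.54 for Fcgr1 and Fcgr4, 0.80 for Fcgr2b and Fcgr3, 0.87 for Fcer1g and Fcgr3 and 0.15 for Fcer1g and Fcgrt.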

How the data were processed

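Poly-A RNA libraries from 24 BMDM samples were sequenced as paired reads. Per the submitters' processing notes and the study's methods, reads were pseudo-aligned with kallisto to GRCm39 transcripts, and the authors filtered low counts, scaled with TMM and tested with limma. The authors deposited values per gene name that are labelled as length-scaled TPM gene counts. The named genes summed to 999365 to 999801 in each library, so the values were treated as TPM. Depth is therefore unknown, and no interval that needs it is given. A row without a gene name was left out of every test. Groups and replicate numbers came from the sample titles.

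Libraries were scaled by TMM factors (30% of M values and 5% of A values trimmed) and put on the log2 scale after a pseudocount of 1 was added. Genes above 1 TPM in at least 3 libraries were tested (13661). Limma 3.58.1 (R 4.3.3) fitted 8 group means to all 24 libraries with a trend on the mean level, which left 16 residual degrees of freedom, and 21 contrasts were made, 5 of them interactions. The p-values are two-sided, adjusted by the Benjamini-Hochberg method, and compared with 0.05. Intervals are at 95%.

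The members, gene lists, motifs and tests were chosen with earlier results of these data known. Some genes and a motif are not reported here. Named genes were the 6 members, up to 3 called genes with the largest change per list and main comparison, a few fixed signalling genes, and the 3 genes most correlated with each member. The labels do not say that same-numbered replicates share a preparation, though library names carry the same numbers in every group. Deviations from group means of every same-numbered pair correlated above 0.1 in 9 of the 21 contrasts, in which the fit with the replicate number as a block (14 residual degrees of freedom) is printed where it changed a call. Those were CDDO-Me in media and in NRF2 KO CM, WT CM against media under both treatments, KEAP1 KO and NRF2 KO CM against media under CDDO-Me, KEAP1 KO against WT CM under both, and KEAP1 KO against NRF2 KO CM under CDDO-Me. The cut of 0.1 is a choice, and in the other contrasts every same-numbered pair was also above 0 (lowest r 0.0231). The mean r of same-numbered pairs was 0.257 for CDDO-Me in WT CM and 0.292 in KEAP1 KO CM. The main fit does not use this likeness, and some calls that the block added in such contrasts are given at the end.

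Alternatives were other scaling or none, no or a stricter filter (mean TPM of at least 5), pseudocounts of 0.1 and 5, no trend, array weights, the replicate block, the compared groups only, each library left out, and both NRF2 KO CM replicate 3 libraries left out. The fits were also run on simulated data with independent noise. Of 100 genes with a log2 change of 1, 79% were called in the right direction, and of 100 with a change of 2, 98%. The changed genes were drawn from those with a log2 level above 3 in media/vehicle, so recovery of genes at lower levels was not simulated. The simulation held no shared replicate effects and no library that stood apart, so it does not bear on those, and smaller changes were not simulated. Promoter windows are RefSeq sequences (GRCm38.p6) matched to GRCm39, and positions and transcripts are those of GENCODE for GRCm39. Python 3.11.15 and matplotlib 3.10.9 drew the plots.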

Additional observations from a re-analysis of the deposited data

Results flagged for a closer look

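The effect of CDDO-Me on Fcgr1, Fcgr4 and Fcgr2b differed between media by interaction contrasts in limma, which is what brought these results here. On the log2 scale, the effect in WT CM minus that in control media was 4.53 for Fcgr1 (adjusted p = 1.97e-11), 5.23 for Fcgr4 (3.10e-09) and -1.98 for Fcgr2b (0.0114). The effect in KEAP1 KO CM minus that in media was 4.67 for Fcgr1 (adjusted p = 1.16e-11), 5.63 for Fcgr4 (1.05e-09) and -2.07 for Fcgr2b (0.00803). The effect in WT CM minus that in NRF2 KO CM was 4.45 for Fcgr1 (adjusted p = 2.50e-11), 5.05 for Fcgr4 (5.12e-09) and -2.71 for Fcgr2b (0.000867). The comparisons with media share the media groups, and those of WT CM share the WT CM groups. All 9 kept their direction and their call under every alternative run.

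Clec9a and Xcr1, markers of a dendritic cell subset, were also higher in the 6 libraries of WT and KEAP1 KO CM with CDDO-Me than in the other 18, as was Bst2 of the same list. Of the rest of that list, Flt3, Siglech and Zbtb46 were at most 0.239, 0.513 and 1.36 TPM in all 24 libraries, and Cd209a was not raised in those 6. The part of these genes in the differences was not tested.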

How the results depend on the processing

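Of 42 called differences of the members (those of KEAP1 KO against NRF2 KO CM not included), 33 kept direction and call under every alternative, 27 of 768 values lost the call, and 0 reversed. With array weights the count of called members was 5 for CDDO-Me in WT and KEAP1 KO CM, 4 in media, 5 for the WT CM against media and against NRF2 KO CM interactions, 5 for KEAP1 KO CM against media under vehicle, 5 for WT and for KEAP1 KO against NRF2 KO CM under either treatment, and 1 for NRF2 KO CM against media and KEAP1 KO against WT CM under CDDO-Me. Array weights also raised the calls over all genes, from 2093 to 5405 for the WT CM against media interaction, 26 to 754 for NRF2 KO CM against media and 6 to 262 for KEAP1 KO against WT CM under CDDO-Me. Without both NRF2 KO CM replicate 3 libraries it was 5 for CDDO-Me in KEAP1 KO CM, 4 in media, 5 for both interactions, 5 for KEAP1 KO CM against media under vehicle and for WT and KEAP1 KO against NRF2 KO CM, and 1 for KEAP1 KO against WT CM under CDDO-Me. With the compared groups only it was 5 in WT CM, 4 in media and 1 in NRF2 KO CM for CDDO-Me, 5 for the WT CM against media interaction and for KEAP1 KO CM against media under vehicle, and 0 for WT and KEAP1 KO against NRF2 KO CM under vehicle. KEAP1 KO CM against media under vehicle also gave 5 without scaling.

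The replicate block gave 5 for KEAP1 KO CM against media and against NRF2 KO CM under vehicle and 1 for NRF2 KO CM against media under CDDO-Me. There it added Fcgr3 (adjusted p = 0.00192) and Fcgr4 (0.00191) with KEAP1 KO CM under vehicle and Fcgr3 with CDDO-Me in KEAP1 KO CM (0.0161). All 42 calls held under it. With it the pathway lists had 2 engulfment, 3 ITAM partner and 5 proximal genes called for CDDO-Me in media, and 5 engulfment, 11 inhibitory and 3 ITAM partner genes with WT CM under vehicle.

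Leaving out single libraries, called members ranged from 2 to 4 for WT CM against media under vehicle, and from 3 to 5 for WT against NRF2 KO CM under vehicle and CDDO-Me (5 without NRF2 KO CM replicate 3). Uncalled differences changed sign, over ranges of -0.75 to 0.0912 (Fcer1g), -0.10 to 0.87 (Fcgr2b) and -0.78 to 0.10 (Fcgrt) for CDDO-Me in NRF2 KO CM, -0.18 to 0.0086 (Fcer1g, WT CM against media, vehicle), and -0.33 to 0.0566 (Fcgr2b) and -0.20 to 0.00464 (Fcgrt) for KEAP1 KO against WT CM under vehicle. There Fcgr1 was at 0.033 with array weights. The causes were not tested. A pseudocount of 1 moved the Fcgr4 over Fcgr3 ratio in media/CDDO-Me to 0.0166.

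Without scaling, the median of all genes was at -0.123 and -0.166 for CDDO-Me in WT and KEAP1 KO CM and at -0.159 and -0.147 for these CM against media under CDDO-Me. The share of called genes that were higher moved from 51.8% to 39.1%, 50.2% to 34.6%, 52.3% to 33.6% and 53.5% to 37.4%, and from 60.6% to 48.2% for WT CM under vehicle. Genes called for CDDO-Me ranged from 523 to 3523 in media (822 as reported), 3098 to 7127 in WT CM (3809), 3181 to 7006 in KEAP1 KO CM (3932) and 143 to 2782 in NRF2 KO CM (1313).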
